A study of Mus musculus with 9 samples.

Results

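The genes described here are 38 genes of sterol synthesis, fatty acid synthesis and sterol efflux, taken by name from a table of 23951 gene symbols in mouse bone marrow-derived mast cells. Mast cells are granule-filled immune cells that bind IgE, and the cultured form is grown from bone marrow progenitors. All 38 were found in the table, of which 6 make farnesyl diphosphate, 11 turn it into sterols, 6 control the pathway or carry sterol, 9 make fatty acids or their glycerolipids, and 6 belong to efflux and its nuclear receptors. Cells came from C57BL/6 mice of wild type genotype and were cultured for 4 to 6 weeks with interleukin-3 and stem cell factor, each at 10 ng/ml. Per the labels, over 95% carried the high-affinity IgE receptor and CD117. There were 3 untreated libraries, 3 libraries of cells given DNP-IgE at 0.5 µg/ml for 18 h, and 3 libraries of cells given that IgE and then the antigen DNP-BSA at 50 ng/ml for 2 h. The last group is called antigen here and therefore carries both agents. No label states the age of the mice or whether replicates were separate cultures, so a p-value here reflects only the spread of the libraries, which may be technical.

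Cells make cholesterol from acetyl-CoA by way of mevalonate, farnesyl diphosphate, squalene and lanosterol. The transcription factors SREBP1 and SREBP2 turn on most of these enzymes and those of fatty acid synthesis when the endoplasmic reticulum is short of sterol, and the INSIG proteins hold them back when sterol is plentiful. The nuclear receptors LXR alpha and LXR beta bind oxidised sterols and turn on the cholesterol exporters ABCA1 and ABCG1 and the gene of the ubiquitin ligase MYLIP.

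Some libraries stood apart from the others. Levels are in FPKM (fragments scaled by transcript length and by the number of mapped reads), a scale per length on which levels of different genes can be compared. Depth estimated from the steps of low values was 20.7 to 39.9 M reads per library. IgE replicate 3 lay farthest from its group, with an SD of 0.175 for its log2 differences from the other 2 IgE libraries, against 0.099 to 0.123 in the other 8 libraries. Among the 38 genes it was over 1.2 times the mean of the other 2 for Fasn, Srebf2, Srebf1 and Scap. In antigen replicate 3, a value of 0 stood for all 437 X-linked genes found above 0 in each of the other 8 libraries, Nsdhl and Ebp among them, and these zeros were treated as missing. Hmgcs1, an early enzyme of the mevalonate pathway, was listed at 0 in all 9 libraries and is left out, since an exact 0 can be a failed estimate. Of 10 mast cell markers, 8 were at 1 FPKM or more in every group, while Cpa3 and Cma1 were listed at 0 throughout. Of the 8, 0 were higher and 2 lower with IgE, and 3 were higher and 1 lower with antigen relative to IgE. Among all tested genes 15.9% were higher and 14.2% lower with IgE, and 37.6% and 36.2% with antigen. In untreated, IgE and antigen libraries the group means were 6679.8, 6256 and 7420.0 FPKM for Tpsb2, 5652, 5639 and 4816 for Fcer1a, 1190.1, 1080.3 and 626 for Ms4a2, and 456, 369 and 689 for Slc18a2. Kit (CD117) and Hdc, chosen after their values were seen, were at 447, 433 and 457 FPKM and at 27.1, 28.7 and 895 FPKM.

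With IgE alone, the sterol synthesis enzymes and most fatty acid synthesis enzymes were higher than in untreated cells, and 4 of the 5 tested efflux and LXR genes were lower. Fdps, which makes farnesyl diphosphate, was 2.08-fold higher, Tm7sf2, a sterol reductase, 2.19-fold and Scd1, a fatty acid desaturase, 2.48-fold, while the cholesterol exporter Abca1 was 1.37-fold lower (folds are ratios of group means). Of the 38 genes, 37 were tested, each above 1 FPKM in every library with a value, and Nr1h3 was under the filter. By limma on log2(FPKM + 1), 26 of the 37 were higher (70.3%) and 4 lower (10.8%), where 30.1% of all 10890 tested genes were called, 15.9% higher and 14.2% lower. The median log2 change was 0.48 over the 37 genes and -0.01 over all tested genes. Without IgE replicate 3 the counts were 27 higher and 7 lower, with 20.3% of all tested genes higher and 19.8% lower, so that the 7 were near the background share.

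After 2 h of antigen, the genes moved in both directions relative to IgE alone. Mvk, Acat2, Lss, Dhcr7, Insig1, Elovl6 and Mylip were 1.91-fold to 2.77-fold lower, while Scd1, Cyp51, Srebf2 and the lipin gene Lpin1 were 1.69-fold to 2.73-fold higher. Of the 37 tested genes, 10 were higher (27.0%) and 17 lower (45.9%), where 73.8% of all tested genes were called, 37.6% higher and 36.2% lower. The difference between these shares was not tested. Quantile normalization of the libraries gave 6 higher and 23 lower in place of 10 and 17, and moved the shares over all tested genes to 30.6% higher and 42.8% lower. The median absolute log2 change of the 37 genes was 0.33, beside 0.32 over all tested genes. Without IgE replicate 3 the counts were 11 higher and 17 lower, with 38.2% of all tested genes higher and 37.6% lower.

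Antigen libraries were also set beside untreated ones, a comparison in which the agents are IgE and antigen together. Here 22 of the 37 genes were higher (59.5%) and 9 lower (24.3%), with 74.3% of all tested genes called, 38.7% higher and 35.6% lower. Scd1 was 5.32-fold higher, Lpin1 2.89-fold and Cyp51 2.75-fold, while Mylip was 2.49-fold lower, Elovl6 1.99-fold and Mvk 1.75-fold. The 3 comparisons share libraries, so their values are given side by side and no agreement between them is counted.

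**Figure D1:**
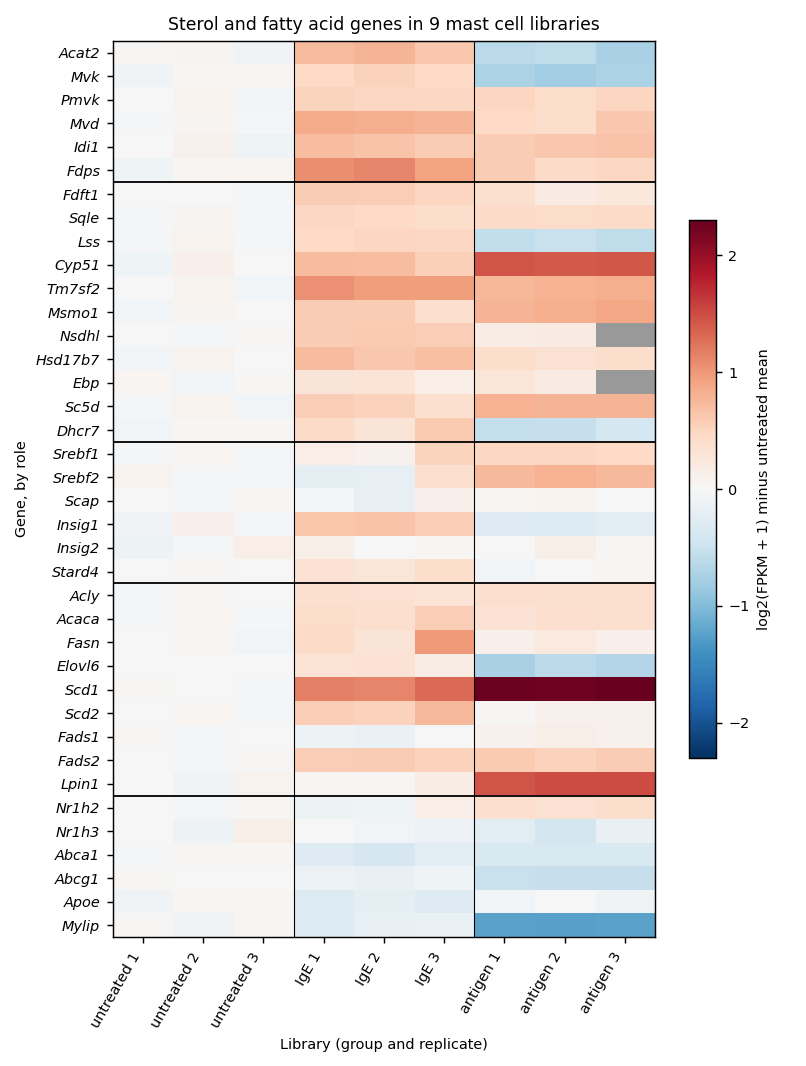
The colour gives log2(FPKM + 1) minus the mean of the untreated libraries, for the 38 genes (rows, by role, separated by black lines) in the 9 libraries (columns). Grey marks the missing values of Nsdhl and Ebp in antigen replicate 3, and the IgE columns are mostly red in the sterol enzymes, while the antigen columns hold both colours.

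The first stretch of the pathway, from acetyl-CoA to farnesyl diphosphate, had 6 genes, and all 6 rose with IgE (15.9% of all tested genes did). Their summed level was 124 to 135 FPKM in untreated, 219.7 to 243 in IgE and 154 to 164 in antigen libraries. Fdps was at 54.8, 60.96 and 60.8 FPKM in the untreated libraries, 125, 129.5 and 112 in the IgE libraries and 88.1, 79.7 and 81.9 in the antigen libraries. The 3 groups did not overlap, and antigen libraries lay between the other 2 groups (log2 1.04, SE 0.0640, adjusted p = 1.46e-05 for IgE versus untreated, and log2 -0.55, SE 0.0640, adjusted p = 2.11e-05 for antigen versus IgE). Mvd, the decarboxylase that makes isopentenyl diphosphate, had the same order of groups, with 12 ± 0.494, 22.1 ± 0.666 and 17.3 ± 1.54 FPKM (SD, n = 3 each). Its antigen value was 1.45-fold that of untreated cells (log2 0.49, adjusted p = 2.75e-05).

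Mvk and Acat2 were lowest in the antigen libraries. Mvk, mevalonate kinase, was at 16.7, 18.2 and 18.4 FPKM untreated, 24.8, 26.1 and 24.6 with IgE and 10.3, 9.80 and 10.3 with antigen, again with no overlap between groups. It fell with antigen relative to IgE (log2 -1.23, SE 0.0484, adjusted p = 4.12e-09) and was below untreated cells as well (log2 -0.75). Acat2, the cytosolic thiolase that makes acetoacetyl-CoA, was at 13.2, 13.5 and 12.1 FPKM untreated, 21.9, 23.1 and 20.5 with IgE and 8.09, 8.25 and 7.29 with antigen (log2 -1.36, SE 0.0622, adjusted p = 1.31e-08 for antigen versus IgE). Its fall of 1.36 on the log2 scale was the largest among the 37 tested genes in that comparison.

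Pmvk and Idi1 had antigen libraries that overlapped the IgE libraries. Pmvk, phosphomevalonate kinase, which acts on the product of Mvk, was at 17.7 ± 0.926, 25.3 ± 0.394 and 24.9 ± 0.799 FPKM. Idi1, which isomerises isopentenyl diphosphate, was at 10.3, 10.9 and 9.40 FPKM untreated, 17.2, 16.6 and 15.8 with IgE and 15.8, 16.2 and 16.7 with antigen. Neither differed between antigen and IgE by the test, with 95% intervals of the log2 difference of -0.12 to 0.08 and -0.15 to 0.10. Under quantile normalization Pmvk was called lower with antigen (log2 -0.15, adjusted p = 0.0138).

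The second stretch, from squalene synthase to cholesterol, had 11 genes, all of which rose with IgE, by 0.25 (Ebp) to 0.99 (Tm7sf2) on the log2 scale. With antigen 3 rose relative to IgE, 6 fell and 2 did not pass the test. Over all tested genes, 15.9% were higher with IgE, and 37.6% were higher and 36.2% lower with antigen relative to IgE. The summed level of the 9 genes with values in all libraries was 233 to 254 FPKM untreated, 335 to 363 with IgE and 373 to 381 with antigen. Abundant genes weigh most in this sum. From IgE to antigen Msmo1 went from 109 to 136 FPKM and Cyp51 from 43.2 to 73.9, while Lss went from 54.7 to 26.3. The rise of Msmo1 was not seen under quantile normalization. With the zeros of antigen replicate 3 as deposited, neither Nsdhl nor Ebp passed the test in the IgE comparison (log2 0.58, adjusted p = 0.708 for Nsdhl, and log2 0.25, adjusted p = 0.917 for Ebp).

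Lss and Cyp51 catalyse consecutive steps and went opposite ways with antigen. Lss, which closes oxidosqualene into lanosterol, was at 37.7, 41.3 and 38.3 FPKM untreated, 54.3, 55.3 and 54.6 with IgE and 25.9, 27.2 and 25.8 with antigen. It fell (log2 -1.03, SE 0.0426, adjusted p = 6.33e-09), and the antigen libraries lay below both other groups. Cyp51, which removes a methyl group from lanosterol, was at 25.02, 28.97 and 26.5 FPKM untreated, 45.2, 44.7 and 39.7 with IgE and 74.96, 72.8 and 74.1 with antigen. It rose at both steps (log2 0.67, SE 0.0610, adjusted p = 7.47e-05 with IgE, and log2 0.76, SE 0.0610, adjusted p = 1.05e-06 with antigen), and the 3 groups did not overlap.

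Sc5d and Msmo1 were also highest in the antigen libraries. Sc5d, a desaturase near the end of the pathway, was at 23.9 ± 1.15, 33.9 ± 2.35 and 41.9 ± 0.331 FPKM (log2 0.30, adjusted p = 0.000487). Msmo1, a methylsterol oxidase that acts after Cyp51, was at 72.3, 79.4 and 75.4 FPKM untreated, 113, 114 and 99.6 with IgE and 131, 135 and 141 with antigen. Its rise with antigen (log2 0.32, adjusted p = 0.000638) became -0.017 (adjusted p = 0.75) under quantile normalization, so its direction relative to IgE depends on the scaling.

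Dhcr7, which makes cholesterol from its last precursor in the Kandutsch-Russell branch, fell with antigen from 10.6 ± 1.26 to 5.06 ± 0.369 FPKM (log2 -0.94, adjusted p = 1.4e-06) and was below the 7.52 ± 0.288 FPKM of untreated cells. Smaller falls with antigen were found for Fdft1, squalene synthase (log2 -0.28), Tm7sf2 (log2 -0.19), Hsd17b7, a sterol ketoreductase (log2 -0.30), and Nsdhl, a sterol dehydrogenase (log2 -0.40, with 2 antigen libraries). These 4 genes stayed above their untreated level, by 0.18 to 0.79 on the log2 scale. Sqle, the squalene epoxidase, was at 41.8, 45.01 and 41.7 FPKM untreated, 60.1, 59.2 and 56.99 with IgE and 58.5, 57.8 and 58.4 with antigen. IgE and antigen libraries overlapped for Sqle, with a 95% interval of -0.10 to 0.08 for the log2 difference, but quantile normalization called it lower (log2 -0.21, adjusted p = 0.000535). Ebp, a sterol isomerase, had an interval of -0.16 to 0.11 and was also called lower under quantile normalization (log2 -0.19, adjusted p = 0.0121).

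**Figure D2:**
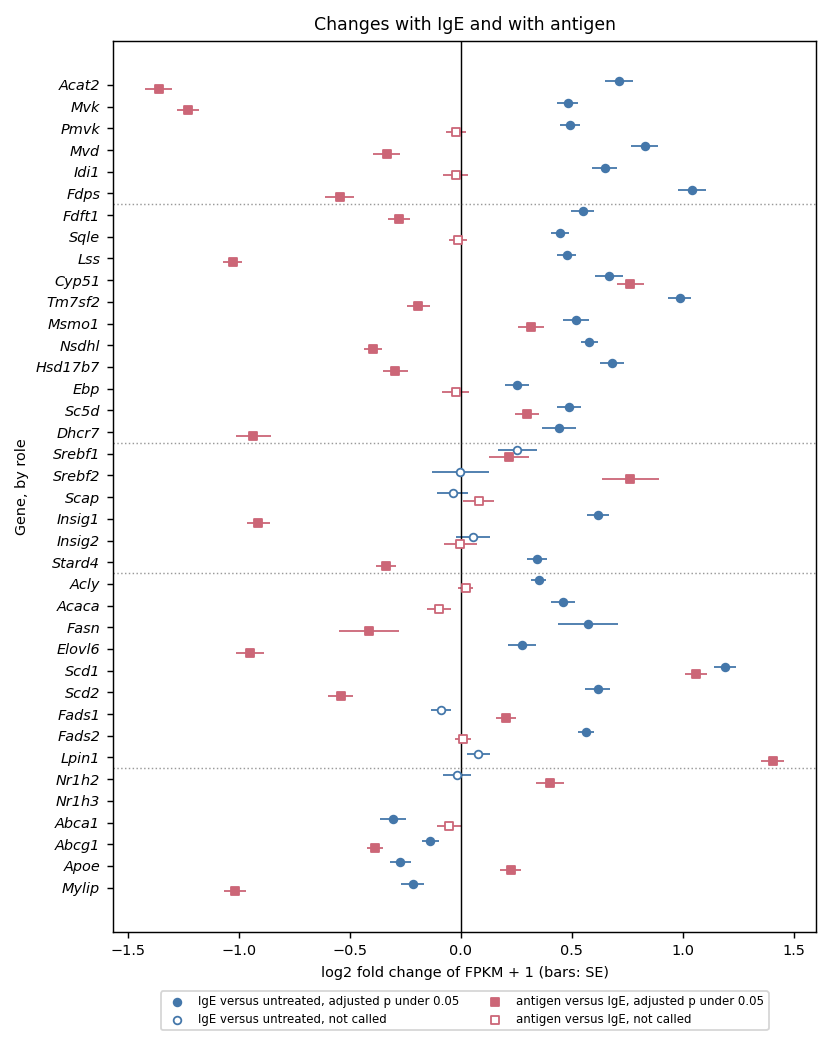
Points give limma's log2 fold change of FPKM + 1 for IgE versus untreated (blue circles) and antigen versus IgE (red squares), bars give the SE, and open symbols mark genes that did not pass the test. All 17 sterol enzymes have blue circles to the right of 0, while their red squares run from Acat2 at -1.36 to Cyp51 at 0.76, and Nr1h3 was not tested.

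The promoters of 6 sterol enzymes are shown because these genes rose together with IgE and then separated with antigen. Each line gives the 180 bases before the RefSeq gene start (GRCm38.p6, a later build than the mm9 genome of the FPKM table), 5′ to 3′ on the gene's strand, and capitals mark CCAAT or its reverse complement, the box bound by NF-Y, a known partner of SREBP. Mvd lay between the other groups with antigen and Idi1 did not differ from IgE by the test. Mvk and Lss fell below untreated cells, and Cyp51 and Msmo1 were highest with antigen, for Msmo1 not above IgE under quantile normalization.
Mvd (chr8:122443423-122443602, minus strand): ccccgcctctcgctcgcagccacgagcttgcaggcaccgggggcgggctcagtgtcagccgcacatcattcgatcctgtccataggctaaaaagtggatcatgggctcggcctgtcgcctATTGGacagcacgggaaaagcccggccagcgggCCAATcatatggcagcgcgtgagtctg
Idi1 (chr13:8885426-8885605, plus strand): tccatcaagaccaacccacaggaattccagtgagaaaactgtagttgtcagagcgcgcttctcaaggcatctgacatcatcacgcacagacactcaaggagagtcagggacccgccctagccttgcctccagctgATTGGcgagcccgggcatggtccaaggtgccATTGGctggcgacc
Mvk (chr5:114444089-114444268, plus strand): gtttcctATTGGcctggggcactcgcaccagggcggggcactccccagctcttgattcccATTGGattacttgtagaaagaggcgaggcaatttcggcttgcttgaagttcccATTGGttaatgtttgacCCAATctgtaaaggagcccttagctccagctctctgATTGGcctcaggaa
Lss (chr10:76531425-76531604, plus strand): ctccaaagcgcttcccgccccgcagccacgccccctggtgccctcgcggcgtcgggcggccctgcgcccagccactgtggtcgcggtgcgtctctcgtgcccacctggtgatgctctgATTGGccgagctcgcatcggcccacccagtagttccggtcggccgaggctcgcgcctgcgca
Cyp51 (chr5:4104698-4104877, minus strand): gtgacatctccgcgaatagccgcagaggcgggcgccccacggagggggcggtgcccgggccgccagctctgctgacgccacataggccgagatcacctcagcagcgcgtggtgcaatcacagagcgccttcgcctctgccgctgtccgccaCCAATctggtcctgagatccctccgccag
Msmo1 (chr8:64733579-64733758, minus strand): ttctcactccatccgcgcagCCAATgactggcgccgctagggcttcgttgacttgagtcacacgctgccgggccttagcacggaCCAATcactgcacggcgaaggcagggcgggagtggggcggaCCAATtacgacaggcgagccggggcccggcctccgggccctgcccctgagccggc

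The CCAAT box was present in all 6 windows, with 5 copies in Mvk, 3 in Msmo1, 2 each in Mvd and Idi1, and 1 each in Lss and Cyp51. Its part in the changes with antigen was not tested. Over windows of 250 bases before to 50 after the start, on both strands, 30 of the 38 genes had an entry in the RefSeq table. CCAAT was found in 20 of these 30 (66.7%), beside 43.4% of the 8246 tested genes with an entry. By role, it was present in 4 of 5 genes of the first stretch, 9 of 9 of the second, 4 of 5 of the SREBP control genes, 2 of 6 of fatty acid synthesis and 1 of 5 of the efflux genes. The GC box GGGCGG was in 22 of 30 (73.3%, beside 69.9%) and the E-box CACGTG in 6 of 30 (20%, beside 12.1%). The letters TCACNCCAC, a strict form of the sterol regulatory element, were in 0 of 30 (1.27% of tested genes), and a direct repeat of GGTCA with 5 bases between, a form of the LXR element, in 0 of 30 (0.04%). The shorter CACNCCAC, which holds part of the first of these and was chosen after seeing the data, was in 2 of 30 (6.7%, beside 7.4%). These are matches of letters, with no test.

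Of the 6 genes that control the pathway or carry sterol, 2 rose and 0 fell with IgE, and 2 rose and 2 fell with antigen relative to IgE. These counts stand beside 15.9% higher and 14.2% lower of all tested genes with IgE, and 37.6% and 36.2% with antigen. Insig1, the sterol sensor that retains SREBP in the endoplasmic reticulum and is itself an SREBP target, was at 43.4, 49.4 and 44.6 FPKM untreated, 71.6, 72.5 and 68.1 with IgE and 36.98, 36.5 and 37.8 with antigen. It rose with IgE (log2 0.62, SE 0.0503, adjusted p = 5.52e-05) and fell with antigen to below untreated cells (log2 -0.91, SE 0.0503, adjusted p = 5.62e-08 against IgE). Insig2, its paralog, was at 6.03 ± 0.697, 6.28 ± 0.382 and 6.26 ± 0.386 FPKM and passed no test (95% intervals of -0.11 to 0.22 with IgE and -0.17 to 0.17 with antigen). Stard4, a carrier of cholesterol between membranes, rose with IgE from 21.03 ± 0.254 to 26.9 ± 1.29 FPKM and was at 21.1 ± 0.840 with antigen.

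Srebf2, which encodes SREBP2, was at 28.1, 25.98 and 25.7 FPKM untreated, 22.9, 23.3 and 35.02 with IgE and 45.02, 47.2 and 45.2 with antigen. The antigen libraries were above all others, and IgE replicate 3 stood well above the other 2 IgE libraries. Srebf2 rose with antigen relative to IgE (log2 0.76, SE 0.129, adjusted p = 0.000322). Its IgE change did not pass the test (95% interval of the log2 difference -0.29 to 0.28, adjusted p = 0.991), and it was called lower without IgE replicate 3 (log2 -0.20, adjusted p = 0.00824). Srebf1, which encodes SREBP1, was at 22.1, 23.4 and 21.96 FPKM untreated, 25.2, 24.1 and 32.4 with IgE and 31.6, 31.8 and 31.3 with antigen. The IgE libraries were all above the untreated ones, but the change did not pass the test (log2 0.25, adjusted p = 0.0538) and was called higher under 3 of 20 alternatives, among them without IgE replicate 3 (log2 0.13, adjusted p = 0.0281). It rose in antigen versus untreated cells (log2 0.47, adjusted p = 0.000665). Against IgE the groups overlapped, and the call (log2 0.22, adjusted p = 0.0466) was lost under 15 of 20 alternatives, with adjusted p up to 0.431. Scap, the escort of SREBP, passed no test, at 9.48 ± 0.284, 9.25 ± 1.10 and 9.79 ± 0.292 FPKM, except for antigen versus IgE without IgE replicate 3 (log2 0.16, adjusted p = 0.0189).

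Of the 9 genes of fatty acid and glycerolipid synthesis, 7 rose with IgE, and with antigen 3 rose, 3 fell and 3 did not pass the test relative to IgE. Of all tested genes 15.9% were higher with IgE. With antigen 37.6% were higher and 36.2% lower, so the antigen counts of this role were near the background share. Their summed level was 401 to 403 FPKM untreated, 523 to 572 with IgE and 548 to 552 with antigen. Acly, which makes cytosolic acetyl-CoA from citrate, was at 66.3, 69.1 and 68.3 FPKM untreated, 88.1, 87.2 and 85.2 with IgE and 89.2, 87.5 and 87.9 with antigen. Acaca, acetyl-CoA carboxylase, was at 10.2 ± 0.314, 14.4 ± 1.10 and 13.4 ± 0.330 FPKM. Both rose with IgE, and neither passed the test between antigen and IgE (95% intervals of -0.05 to 0.10 and -0.22 to 0.02), although quantile normalization called both lower (log2 -0.23, adjusted p = 4.3e-05 and log2 -0.15, adjusted p = 0.0265).

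Fasn, fatty acid synthase, was at 25.5, 26.1 and 23.97 FPKM untreated, 34.6, 31.3 and 50.3 with IgE and 27.5, 29.7 and 27.4 with antigen. Its highest value was IgE replicate 3, and without that library the rise with IgE was log2 0.37, adjusted p = 0.00108, in place of log2 0.57, adjusted p = 0.0105. The fall with antigen relative to IgE was log2 -0.42, adjusted p = 0.0175, and log2 -0.22, adjusted p = 0.00615 without that library. Elovl6, which lengthens palmitate, was at 2.96, 2.94 and 3.004 FPKM untreated, 3.94, 4.03 and 3.46 with IgE and 1.37, 1.61 and 1.48 with antigen, and the antigen libraries were below both other groups (log2 -0.95, SE 0.0628, adjusted p = 2.4e-07 against IgE).

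The desaturases Scd1 and Scd2, which place the first double bond in saturated fatty acids, are given side by side. Scd1 was at 6.91, 6.73 and 6.63 FPKM untreated, 16.2, 15.8 and 18.2 with IgE and 36, 35.5 and 36.3 with antigen, and it rose at both steps (log2 1.19, SE 0.0510, adjusted p = 1.52e-06 with IgE, and log2 1.06, SE 0.0510, adjusted p = 1.95e-08 with antigen). Scd2, the more abundant of the pair, was at 92.8, 96.7 and 90.7 FPKM untreated, 139, 135 and 158 with IgE and 95.4, 100.2 and 99.5 with antigen. It rose with IgE (log2 0.62, adjusted p = 7.84e-05) and fell with antigen (log2 -0.54, adjusted p = 9.83e-06) to a level that did not differ from untreated cells by the test (log2 0.07, adjusted p = 0.265), although quantile normalization placed it lower (log2 -0.25, adjusted p = 0.00839). The genes are near neighbours in the RefSeq annotation, with 1 protein-coding gene between them. Their transcripts in GENCODE share 145 windows of 50 bases, of 4841 in Scd1 and 5406 in Scd2, and how shared reads were assigned is not given in the sources used here.

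Fads1 and Fads2, the desaturases of long polyunsaturated fatty acids, lie next to each other in the genome. Fads2 was at 94.1, 93.1 and 96.9 FPKM untreated, 141, 143 and 138 with IgE and 143, 138 and 143 with antigen. It rose with IgE (log2 0.56, SE 0.0359, adjusted p = 1.71e-05) and did not differ between antigen and IgE by the test (95% interval -0.07 to 0.09), although quantile normalization placed it lower (log2 -0.33, adjusted p = 6.59e-06). Fads1 was at 81.2 ± 1.72, 76.3 ± 4.57 and 87.98 ± 1.33 FPKM and did not pass the test with IgE (log2 -0.09, adjusted p = 0.156), but was called lower under 2 of 20 alternatives. For antigen versus untreated, its call (log2 0.11, adjusted p = 0.0403) was lost under 9 of 20 alternatives and its sign changed under 1. Its rise from IgE to antigen (log2 0.20, adjusted p = 0.00195) became a log2 change of -0.054 under quantile normalization.

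Lpin1, a phosphatidate phosphatase that makes diacylglycerol, rose with antigen and did not pass the test with IgE. It was at 19.3, 18.3 and 20.3 FPKM untreated, 19.8, 19.5 and 21.9 with IgE and 54.4, 56.6 and 56.1 with antigen, a 2.73-fold rise over IgE (log2 1.41, SE 0.0529, adjusted p = 3.09e-09). The IgE change was 0.08 (95% interval -0.04 to 0.20).

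**Figure D3:**
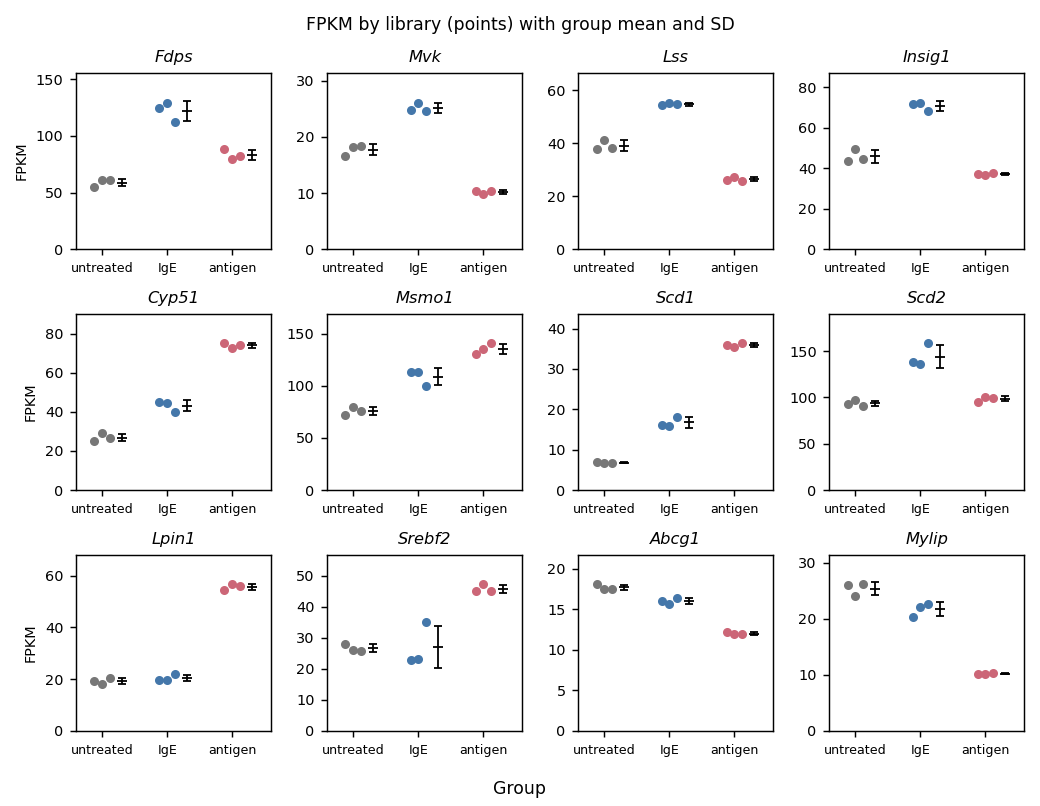
FPKM of 12 of the genes (1 panel each, linear axes from 0) in the untreated, IgE and antigen libraries, with a point per library and a bar for the group mean ± SD (n = 3). Fdps peaks with IgE, Mvk, Lss and Insig1 are lowest with antigen, Cyp51, Msmo1 and Scd1 climb at both steps, Lpin1 is high with antigen, and 1 IgE library of Srebf2 stands above the other 2. The climb of Msmo1 from IgE to antigen was not seen under quantile normalization.

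The efflux side moved the other way with IgE: 4 of its 5 tested genes were lower and 0 higher, by 0.14 to 0.31 on the log2 scale. Of all tested genes 14.2% were lower with IgE and 15.9% higher. With antigen relative to IgE, 2 of the 5 rose and 2 fell, beside 37.6% higher and 36.2% lower of all tested genes. Abca1, which exports cholesterol to apolipoprotein A1, was at 2.25, 2.39 and 2.40 FPKM untreated, 1.73, 1.55 and 1.83 with IgE and 1.62, 1.58 and 1.63 with antigen (log2 -0.31, adjusted p = 0.00332 with IgE). Abcg1, which exports cholesterol to HDL, was at 18.1, 17.6 and 17.6 FPKM untreated, 16.01, 15.7 and 16.4 with IgE and 12.2, 11.98 and 11.9 with antigen. Its groups did not overlap, and it fell with antigen (log2 -0.39, SE 0.0371, adjusted p = 4.4e-06), while its smaller fall with IgE (log2 -0.14, adjusted p = 0.0191) lost the call when untreated replicate 1, untreated replicate 3, IgE replicate 1 or IgE replicate 2 was left out (adjusted p = 0.0504 to 0.0765). Mylip, a ubiquitin ligase and LXR target, was at 25.98, 23.96 and 26.1 FPKM untreated, 20.2, 22.1 and 22.7 with IgE and 10.2, 10.1 and 10.3 with antigen (log2 -1.02, SE 0.0510, adjusted p = 2.63e-08 against IgE).

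Apoe, an apolipoprotein that carries cholesterol, fell with IgE from 40.9 ± 2.04 to 33.6 ± 1.49 FPKM and rose with antigen to 39.4 ± 0.989 FPKM (log2 0.22, adjusted p = 0.00157), a rise that quantile normalization did not call (log2 0.08, adjusted p = 0.128). Of the receptors, Nr1h2 (LXR beta) was at 35.4, 34.6 and 35.9 FPKM untreated, 32.7, 32.9 and 39.3 with IgE and 46.4, 45.3 and 47.2 with antigen, and rose with antigen (log2 0.40, adjusted p = 0.0002). Without IgE replicate 3 it was called lower with IgE (log2 -0.10, adjusted p = 0.037). Nr1h3 (LXR alpha) was at 0.441, 0.339 and 0.604 FPKM untreated, 0.454, 0.397 and 0.331 with IgE and 0.227, 0.0812 and 0.297 with antigen. These values are under the filter, and the gene was not tested. Many LXR targets are well expressed in macrophages, and the macrophage list summed to 103 to 110.0 FPKM in untreated, 89.0 to 96.1 in IgE and 86.9 to 90 in antigen libraries, over the 14 of 15 listed genes found. Of the 5 list genes that were tested, 1 was higher and 2 lower with IgE, and 2 were higher and 3 lower with antigen relative to IgE. The list thus moved in both directions, as did all tested genes, with 15.9% higher and 14.2% lower with IgE, and 37.6% and 36.2% with antigen. In untreated, IgE and antigen libraries Lyz2 was at 72.1 ± 3.98, 53.8 ± 3.19 and 37.5 ± 0.263 FPKM, Cd68 at 8.62 ± 0.310, 16.1 ± 0.245 and 30.2 ± 0.478, Marco at 10.1 ± 0.831, 12.2 ± 0.867 and 8.82 ± 1.40, and Emr1 at 12.2 ± 0.475, 9.36 ± 0.280 and 7.75 ± 0.0620. Of genes chosen after their values were seen, Cd14 was at 0.811 ± 0.162, 0.714 ± 0.0632 and 3.45 ± 0.413 FPKM, Csf1r at 1.05 ± 0.133, 0.716 ± 0.122 and 0.612 ± 0.0414, and C1qa, C1qb and C1qc had group means of 0 to 0.0857 FPKM. In these bulk libraries fewer cells of a type and less RNA per cell cannot be told apart, and the part of such cells in the efflux values was not tested.

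The separation of steps of the pathway was also expressed as the ratio of 2 genes within each library, in which a scaling factor of the library cancels. The ratio of Cyp51 to Lss was 0.664, 0.701 and 0.692 in untreated, 0.832, 0.808 and 0.728 in IgE and 2.89, 2.67 and 2.87 in antigen libraries. The antigen libraries stood above all others (log2 difference from IgE 1.83). The ratio of Msmo1 to Lss was 1.94 ± 0.0266, 1.99 ± 0.144 and 5.15 ± 0.262, so that untreated and IgE libraries overlapped and antigen libraries stood apart. Idi1 to Mvk went from 0.576 ± 0.0566 and 0.657 ± 0.0323 to 1.60 ± 0.0647.

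Scd1 to Scd2 was 0.0744, 0.0696 and 0.0730 in untreated, 0.117, 0.117 and 0.115 in IgE and 0.377, 0.354 and 0.365 in antigen libraries. The groups did not overlap, and the antigen libraries were highest. Fads2 to Fads1 was 1.17 ± 0.0284, 1.85 ± 0.139 and 1.61 ± 0.0572, and Insig1 to Insig2 was 7.66 ± 1.03, 11.3 ± 0.790 and 5.94 ± 0.428. For each of these ratios between antigen and IgE the 2-sided exact permutation test gave p = 0.1, the smallest that 3 against 3 libraries allow. The ratios were chosen after their values were seen.

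**Figure D4:**
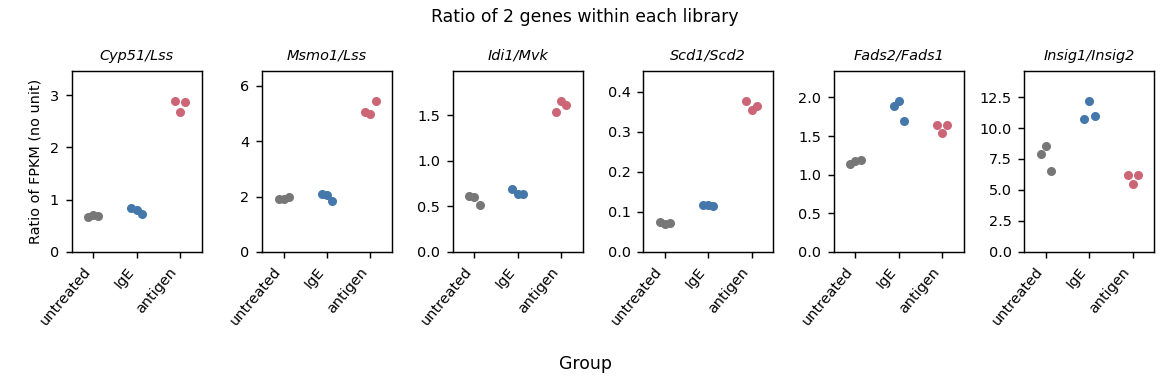
Ratio of the FPKM of 2 genes within each library (points, linear axes from 0) for 6 gene pairs in the untreated, IgE and antigen groups. For Cyp51/Lss, Msmo1/Lss, Idi1/Mvk and Scd1/Scd2 the 3 antigen libraries lie above all others, Insig1/Insig2 is lowest with antigen, and Fads2/Fads1 is lowest in untreated libraries.

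Other genes of the pathway were counted whole from 7 lists with 113 genes in all, 109 of them in the table and 83 tested. With IgE 20 of the 83 were higher (24.1%) and 6 lower (7.23%), and with antigen relative to IgE 29 were higher (34.9%) and 34 lower (41.0%). Over all tested genes the shares were 15.9% and 14.2% with IgE, and 37.6% and 36.2% with antigen, so the antigen shares of these genes were near the background, against which the counts of the single lists are also to be read. Among 5 tested genes of other sterol synthesis enzymes, 2 were higher and 1 lower with IgE, and 0 higher and 3 lower with antigen relative to IgE. Of these Lbr, a sterol reductase of the nuclear envelope, was lower with antigen (log2 -0.29), and Acat1, the mitochondrial thiolase, passed no test.

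In the list of sterol uptake and trafficking, 4 of 17 tested genes were higher and 2 lower with IgE, and 11 were higher and 3 lower with antigen relative to IgE. Osbpl8, a lipid transfer protein, was at 228 ± 4.87, 280.0 ± 18.8 and 313 ± 8.33 FPKM, and rose with IgE (log2 0.30). Its change with antigen was 0.16 on the log2 scale and turned to -0.15 under quantile normalization, both called. Npc2, a lysosomal cholesterol carrier, passed no test, and Soat1, a cholesterol esterifying enzyme, fell with IgE (log2 -0.20). Among 13 genes of SREBP processing and sterol sensing, 2 were higher and 0 lower with IgE, and 4 higher and 5 lower with antigen. Tmem97 rose with IgE (log2 0.45), and Pcyt1a, which makes CDP-choline for phosphatidylcholine, went from 67.3 ± 1.995 to 289 ± 6.47 FPKM with antigen (log2 2.09, adjusted p = 2.57e-11). Mbtps1, the first protease of SREBP, passed neither of these tests.

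Other fatty acid genes were higher with IgE in 8 of 18 and lower in 0, and with antigen higher in 5 and lower in 10. Tecr, of fatty acid elongation, was at 142 ± 5.09, 173 ± 8.69 and 157 ± 4.96 FPKM, Acsl5, an acyl-CoA synthetase, fell with antigen (log2 -0.18), Elovl5, a fatty acid elongase, rose with it (log2 0.30, a call lost under quantile normalization at log2 0.048), and Acss2, an acetyl-CoA synthetase, passed neither test. Glycerolipid genes were higher in 2 of 11 and lower in 0 with IgE, and higher in 5 and lower in 5 with antigen. Lpin2, a lipin like Lpin1, went from 13.2 ± 0.607 to 65.9 ± 1.03 FPKM with antigen (log2 2.24, adjusted p = 1.95e-11), Plin2, a lipid droplet coat protein, rose with antigen (log2 0.30), and Lpcat3 and Agpat1 fell (log2 -0.30 and -0.24). The 2 glycerolipid genes called higher with IgE were Plin2 (log2 0.22) and Lpcat3 (log2 0.13), whose calls were lost under 6 and 15 of 20 alternatives, with adjusted p up to 0.082 and 0.223. The isoprenoid branch had 2 of 13 higher and 1 lower with IgE, and 3 higher and 5 lower with antigen. In it Rabggtb, a subunit that prenylates Rab proteins, rose at both steps, Rce1 rose with antigen, and Fnta passed neither test. Ggps1 fell with IgE (a call lost under 3 of 20 alternatives). It is in 2 lists, and is also the 1 lower gene among the other sterol synthesis enzymes. Other LXR targets and efflux genes were higher in 1 of 8 and lower in 3 with IgE, and higher in 1 and lower in 4 with antigen. The 1 higher with IgE was Lpcat3, the same gene as in the glycerolipid list. Arl4c rose from 25.01 ± 0.910 to 134 ± 1.82 FPKM with antigen (log2 2.38, adjusted p = 5.45e-11), having fallen with IgE (log2 -0.32), while Abca7 fell (log2 -0.41) and Abca2 passed neither test.

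Genes of the cell cycle were also higher with IgE. Of 18 listed genes, 18 were higher and 0 lower with IgE (median log2 0.54), and 1 was higher and 16 lower with antigen relative to IgE (median log2 -0.78). The shares over all tested genes were 15.9% higher and 14.2% lower with IgE, and 37.6% and 36.2% with antigen. The summed level of the 18 genes was 735 to 776 FPKM in untreated, 1073 to 1145 in IgE and 871 to 908 in antigen libraries. Abundant genes weigh most in this sum, above all Pcna, with a mean of 251.5 FPKM over the 9 libraries. Gene by gene, 2 of the 18 were higher and 10 lower in antigen versus untreated cells (median log2 -0.15). Over all tested genes 38.7% were higher and 35.6% lower in that comparison. The part of cell division in the sterol enzyme values was not tested.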

How the data were processed

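Total RNA of 9 libraries (mRNA and lncRNA, per the labels) was sequenced. The submitters' processing notes name TopHat2 2.0.12, Bowtie 0.12.7 and the genome build mm9. The authors deposited 1 FPKM value for each gene symbol and library. The program, annotation, read layout and strand use behind these values are not stated, so reads of overlapping antisense genes may not be separated. The members and gene lists were chosen with earlier results of these data known. Every member was named, and so were the 4 genes with the highest mean FPKM of each other list, except some that are not reported here. Other names were chosen after their values were seen, and the text says so.

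Zeros of X- and Y-linked genes in antigen replicate 3 were treated as missing, with chromosomes taken by symbol from RefSeq (GRCm38.p6). The 10890 genes that reached 1 FPKM in 3 or more libraries entered a limma 3.58.1 fit (R 4.3.3) of log2(FPKM + 1). It had a coefficient for each group, all 9 libraries, a trended prior and no block. Tests were 2-sided, p-values were adjusted by Benjamini-Hochberg over all tested genes, and an adjusted p under 0.05 was called. Log2 changes on this scale understate the change of low genes. Errors after ± are SD over 3 libraries (2 antigen libraries for Nsdhl and Ebp). The fit was tested on simulated data.

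FPKM times transcript length moved in steps of whole reads, which gave the depth: 61.8% to 74.5% of the values of 600 low genes per library lay within 0.1 of a whole number. Chance gives 20% for a depth fixed in advance. The depth was chosen to bring these same values nearest to whole numbers, which raises the share, so the 20% is not a strict reference. In the shallowest library, counting limits the precision to a coefficient of variation of 15.5% at 1 FPKM and 4.91% at 10 FPKM for a 2 kb transcript. Replicate pairs differed by 1.25 to 2.05 times the sampling noise, so no pair looked like 1 library deposited again. The alternatives were other pseudocounts, filters, scalings, priors and fits, the replicate block, the zeros as deposited, and each library left out.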

Additional observations from a re-analysis of the deposited data

How the results depend on the processing

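Of 111 log2 values (37 genes in 3 comparisons), 88 were called, and 76 of these held their direction and call under all 20 alternatives. At least 1 alternative ended the call in 9 and turned the sign in 5. Members called lower with IgE went from 4 to 7 without IgE replicate 3, also when antigen replicate 3 was left out with it, while the share of all tested genes called lower went from 14.2% to 19.8% and 19.3%. With 1 library left out at a time these members numbered 3 to 7. Members called higher in antigen versus IgE went from 10 to 6 with quantile normalization, which placed the median log2 change of all tested genes at -0.08 (0.01 as deposited). Of 84 log2 values of other named genes, 54 were called and 39 held under all alternatives. The cause of these changes was not tested, apart from the samples or scaling that define each alternative. The replicate block gave 26 higher and 4 lower, 9 and 17, and 21 and 9, for IgE versus untreated, antigen versus IgE and antigen versus untreated. Deviations of libraries with the same number correlated at -0.193 to 0.153 across genes, so the numbers were not used to form paired samples. Libraries of different numbers reached -0.323 (untreated replicate 1 with IgE replicate 2) and 0.354 (untreated replicate 1 with IgE replicate 3). Without IgE replicate 3 and antigen replicate 3 together (chosen after seeing the data), these log2 values changed sign: in IgE versus untreated Npc2 0.005, Fads3 -0.041, Agpat1 -0.068, Abca2 -0.084, and in antigen versus IgE Insig2 0.005, Fads2 -0.012, and in antigen versus untreated Stard4 -0.021. Quantile normalization changed the sign of these log2 values: in IgE versus untreated Acss2 -0.018, Elovl5 -0.016, and in antigen versus IgE Msmo1 -0.017, Insig2 0.034, Acly -0.233, Fads1 -0.054, Fads2 -0.326, Abca1 0.001, Npc2 -0.174, Soat1 -0.057, Osbpl8 -0.15, Abca2 -0.096, and in antigen versus untreated Stard4 -0.104, Scd2 -0.25, Fads1 -0.212, Acat1 -0.15, Npc2 -0.285, Tecr -0.253, Abca2 -0.06. Median centring changed the sign of these log2 values: in IgE versus untreated Fads3 -0.01, and in antigen versus IgE Fads2 0, Abca2 -0.006, and in antigen versus untreated Stard4 -0.016. The zeros as deposited changed the sign of these log2 values: in antigen versus IgE Acsl4 -0.506, and in antigen versus untreated Nsdhl -1.191, Ebp -1.577, Acsl4 -0.396. With 1 library left out at a time, signs changed within these ranges: in IgE versus untreated Srebf2 -0.195 to 0.101, Scap -0.118 to 0.036, Insig2 0 to 0.133, Nr1h2 -0.103 to 0.027, Fnta -0.016 to 0.098, Npc2 -0.083 to 0.005, Acss2 -0.001 to 0.075, Fads3 -0.042 to 0.041, Agpat1 -0.068 to 0.077, Abca2 -0.084 to 0.137, and in antigen versus IgE Pmvk -0.037 to 0.003, Idi1 -0.056 to 0.003, Sqle -0.033 to 0.005, Ebp -0.073 to 0.021, Insig2 -0.046 to 0.038, Fads2 -0.005 to 0.026, Abca2 -0.08 to 0.141, and in antigen versus untreated Insig2 -0.004 to 0.13, Stard4 -0.021 to 0.033, Acat1 -0.008 to 0.039, Acsl5 -0.061 to 0.009. Depth limits the genes near 1 FPKM, such as Nr1h3, where counting error is largest.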

Other observations

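Several pathway genes outside the 38, chosen after their values were seen, changed with antigen. In sterol uptake, Scarb1, the HDL receptor, went from 9.92 ± 0.228 FPKM untreated and 14.5 ± 0.988 with IgE to 32.9 ± 1.47 with antigen (log2 1.13, adjusted p = 1.87e-08 against IgE by limma). Gramd1b, which moves cholesterol from the plasma membrane to the endoplasmic reticulum, went from 10.7 ± 0.887 to 37.5 ± 0.691 FPKM (log2 1.73, adjusted p = 1.91e-09).

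Fads3, a member of the same gene family as Fads1 and Fads2, went from 1.08 ± 0.117 FPKM in the IgE libraries to 9.79 ± 0.289 FPKM in the antigen libraries (log2 2.38). By limma its adjusted p was 2.68e-10, and untreated libraries had a mean of 1.07 FPKM. Acsl4, which activates arachidonic acid, went from 33.3 ± 2.23 to 117 ± 5.93 FPKM (log2 1.79, adjusted p = 1.1e-08, with 2 antigen libraries since the gene is X-linked). Rxra, a partner of LXR, fell from 5.27 ± 0.153 to 1.73 ± 0.167 FPKM (log2 -1.20, adjusted p = 2.25e-08), where Nr1h2 rose. Rxrb, a paralog of Rxra, was more abundant, at 17.4 ± 0.514 FPKM untreated and 16.4 ± 1.16 with IgE. Its mean over the 9 libraries was 16.2 FPKM.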
